A study of Mus musculus with 30 samples.

Results

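A group of 9 genes whose transcripts mark the 2-cell stage of the mouse embryo, 6 copies of Zscan4, the Tcstv copies Tcstv1 and Tcstv3, and Zfp352, were followed in RNA libraries of 8-cell embryos. They were taken by symbol, and all of them were found among the 49585 rows of the expression table, each on 1 row. The series pairs nucleosome maps of early embryos and embryonic stem cells with RNA-seq. Its title names nucleosome remodeling mediated by the zinc finger protein YY1, and the RNA comparison asks which transcripts differ when Yy1 is knocked down. The control group held 2 libraries of BDF1 x BDF1 embryos at the 8-cell stage after control knockdown, and the other group held 2 libraries of embryos of the same strain and stage after Yy1 knockdown with the siRNA numbered 1. All 4 libraries came from embryos cultured in KSOM, a medium for preimplantation embryos, and the remaining 26 of 30 samples were not analysed here. The labels do not say whether the replicates were separate collections of embryos, so the spread between them may be technical.

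As background, the Zscan4 genes encode proteins with a SCAN domain and zinc fingers. They are switched on in a burst as 2-cell embryos begin zygotic transcription, and flicker on in a small share of cultured embryonic stem cells, where they have been tied to telomere lengthening. The transcription factor DUX, encoded by Duxf3, activates Zscan4, Tcstv, Zfp352 and retroviral elements of the MERVL family in such cells, and the burst is normally over before the 8-cell stage. Tcstv genes encode small proteins of 2-cell embryos that are little characterised, and Zfp352 encodes a zinc finger protein of the same stage.

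The Zscan4 copies form a cluster on chromosome 7 of mm10, spanning Zscan4a (chr7:10794241-10799065), Zscan4b (chr7:10900740-10905050), Zscan4c (chr7:11005745-11010547), Zscan4d (chr7:11161643-11166148), Zscan4e (chr7:11306369-11310682) and Zscan4f (chr7:11397915-11402318). RefSeq lists Zscan4b, Zscan4c, Zscan4d and Zscan4f as protein coding, Zscan4e as a pseudogene and Zscan4a as a transcribed pseudogene. Tcstv1 (chr13:119893387-119894785) and Tcstv3 (chr13:120316862-120318261) lie on chromosome 13, and Zfp352 (chr4:90218820-90225687) on chromosome 4. The 3 are listed as protein coding. The copies are near-identical, and for fragments that match several copies no counting rule was given in the sources used here. The value of a single copy is therefore uncertain. The sum over copies depends less on which copy a fragment was given to. It too would change if such fragments were left out or counted at each copy.

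RefSeq promoter windows, from 250 bases before to 50 after the annotated start, were matched for 5 of the 9 members. In local alignments of the upstream parts of the 4 Zscan4 windows, pairs were 94.7 to 99.6% identical, the closest pair being Zscan4c and Zscan4f. The alignments covered 216 to 250 columns, and ends left unaligned are not counted. The stretches below are shown because they hold the letters in which the copies differ at the core of the DUX motif, TGATTNAAT. Each runs 5′ to 3′ on the gene's strand, with the 9 bases aligned to the core in capitals.
Zscan4b: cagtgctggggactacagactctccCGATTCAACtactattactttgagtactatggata
Zscan4c: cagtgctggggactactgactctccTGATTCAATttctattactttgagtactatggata
Zscan4d: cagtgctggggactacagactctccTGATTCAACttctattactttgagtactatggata
Zscan4f: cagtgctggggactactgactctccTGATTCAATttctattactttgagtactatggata

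These lie at chr7:10905177-10905236 (Zscan4b, minus strand), chr7:11005536-11005595 (Zscan4c, plus strand), chr7:11166309-11166368 (Zscan4d, minus strand) and chr7:11397729-11397788 (Zscan4f, plus strand) of GRCm38.p6. Counted from 1 at the 5′ end of the core, the Zscan4d letters carry T9C and the Zscan4b letters T1C and T9C, while Zscan4c and Zscan4f match the core. The matches begin 184 bases before the start of Zscan4c and 161 before that of Zscan4f. Zscan4b holds its only match elsewhere, on the other strand, 72 bases before its start. Searched on both strands, the core was found in 236 of 32817 promoter windows of this length, 0.719%. The YY1 core AANATGGC, found in 6.04% of windows, and the ZSCAN4 motif TGCACAC, found in 4.4%, had no match in these 5 windows. A match of letters is a description of the window and not a measured binding site.

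The upstream stretch of Zfp352, the remaining member with a matched window, is shown for comparison. It covers chr4:90218720-90218819 on the plus strand, the last 100 bases before the annotated start, with the letters TATAA in capitals.
Zfp352: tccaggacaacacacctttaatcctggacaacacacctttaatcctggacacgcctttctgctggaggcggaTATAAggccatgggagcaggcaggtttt
The letters TATAA, searched on the gene's strand from 80 to 20 bases before the start after these windows had been seen, stood in the 5 members' windows and in 5.88% of all windows. They began 28 bases before the start of Zfp352 and 31 to 65 bases before those of the Zscan4 copies. The Zfp352 window held no match to the DUX core, and neither did that of Zscan4d.

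Values are FPKM, fragments scaled by gene length and by the library total, as the authors deposited them. The steps between low values gave back the whole fragments behind them, with 29302489 to 34429515 fragments in a library. Yy1, the targeted gene, stood at 77.7 and 71.2 FPKM in control and at 5.89 and 7.98 FPKM in knockdown libraries. The mitochondrial share of fragments was 8.97% for control replicate 1 and 6.5 to 6.88% for the other libraries. Markers of the labelled stage were present, with Pou5f1 at 178 to 214 FPKM. The test across genes was limma on log2(FPKM + 1) for genes averaging 1 FPKM or more, with Benjamini-Hochberg adjustment and a threshold of 0.05. It called 0% of the 12120 genes tested in either direction. Yy1 itself, with a log2 fold change of -3.26, had a limma adjusted p of 0.0556. At an unadjusted p under 0.05 it had 4.22% of genes higher and 4.69% lower after Yy1 knockdown. With both knockdown libraries above both controls stood 21.8% of genes tested, and below both controls 18.9%. For a single value, 2 libraries against 2 cannot give an exact two-sided permutation p below 0.333.

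Of the 9 members, 8 passed the filter, and Zscan4a, with a mean of 0.99 FPKM, did not. None of the 8 was called at an adjusted p of 0.05. At an unadjusted p under 0.05 stood 1 of them, Tcstv3. Tcstv3 was also the 1 tested member whose groups did not overlap, with both knockdown libraries above both controls. By group mean 7 of the 8 were higher and 1 lower after Yy1 knockdown, with a median log2 fold change of 0.76. Over all genes tested 6446 were higher and 5674 lower, with a median of 0.02. These counts describe genes that share copies and libraries, and they support no direction. In bulk embryos, fewer cells with a transcript and less of it per cell cannot be told apart.

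**Figure D1:**
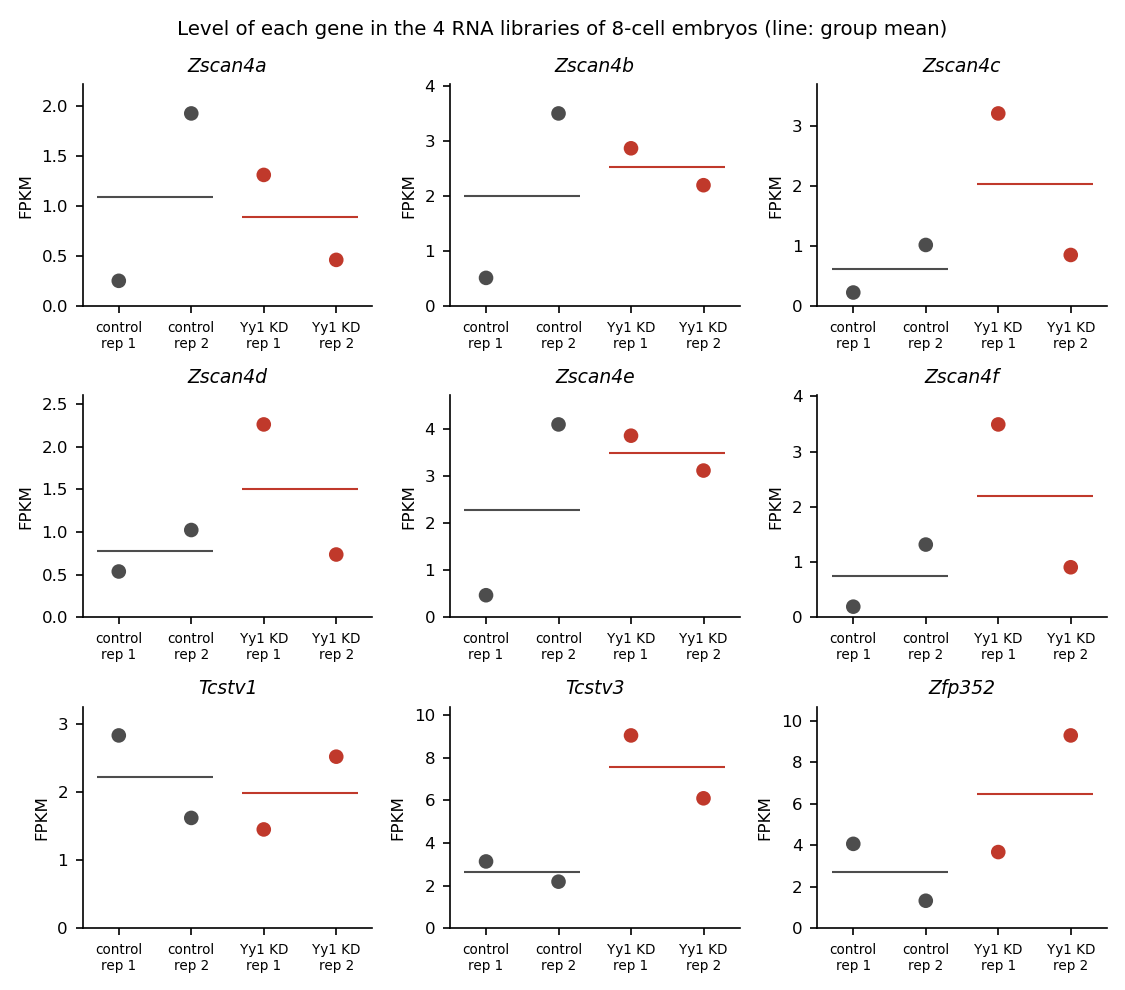
Points give the FPKM of each gene (vertical axes, from 0) in control knockdown replicates 1 and 2 (grey) and Yy1 knockdown replicates 1 and 2 (red), and lines the mean of each group. In 8 of the 9 panels the groups overlap, and in the Tcstv3 panel both red points lie above both grey ones.

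Among the Zscan4 copies, Zscan4c, Zscan4d and Zscan4f are known to encode the full protein with its SCAN domain and zinc fingers. Zscan4c stood at 0.23 and 1.02 FPKM in control and at 3.21 and 0.855 FPKM in knockdown libraries. Knockdown replicate 1 was the high library, and replicate 2 lay between the controls, so the groups overlap. The fold change of Zscan4c by group mean was 3.25, and its log2 fold change 0.83 with a standard error of 0.49 (limma adjusted p = 0.67).

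Zscan4f stood at 0.193 and 1.32 FPKM in control and at 3.49 and 0.906 FPKM in knockdown libraries. The order of the libraries was that of Zscan4c, with a log2 fold change of 0.82 (standard error 0.54, limma adjusted p = 0.68). Without knockdown replicate 1 the log2 fold change was 0.23 for Zscan4c and 0.20 for Zscan4f, and with a pseudocount of 0.1 it was 1.55 and 1.56. Zscan4d, the copy known as the most abundant in 2-cell embryos, stood at 0.537 and 1.02 FPKM in control and at 2.26 and 0.736 FPKM in knockdown libraries. Its libraries had the same order, and its log2 fold change of 0.43 (standard error 0.40) did not pass either (limma adjusted p = 0.774).

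Zscan4e, the copy with the highest mean FPKM over the 4 libraries but below Zscan4b and Zscan4d in control replicate 1, stood at 0.47 and 4.1 FPKM in control and at 3.86 and 3.12 FPKM in knockdown libraries. Here control replicate 2 was the highest library and control replicate 1 the lowest, 8.73-fold apart. The log2 fold change of Zscan4e was 0.71 (standard error 0.59, limma adjusted p = 0.742). Zscan4b, at 0.516 and 3.5 FPKM in control and at 2.87 and 2.2 FPKM in knockdown libraries, had the same order, with a log2 fold change of 0.43 (standard error 0.53, limma adjusted p = 0.836). Zscan4a stood at 0.255 and 1.93 FPKM in control and at 1.31 and 0.464 FPKM in knockdown libraries, a lower group mean after knockdown, and its 20 to 138 fragments per library were not tested. In each of the 6 copies control replicate 1 was the lowest library, 1.91-fold below the other control for Zscan4d and 4.45- to 8.73-fold below it for the others.

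Summed over the 6 copies, Zscan4 stood at 2.2 and 12.9 FPKM in control and at 17.0 and 8.28 FPKM in knockdown libraries. The controls lie on either side of knockdown replicate 2, and the distance between them, 5.86-fold, exceeds the difference between the group means, 1.68-fold. The means were 7.54 ± 7.56 FPKM after control knockdown and 12.6 ± 6.17 FPKM after Yy1 knockdown (SD, n = 2 each). Against control replicate 2 alone the knockdown mean was 0.981-fold, and against control replicate 1 alone 5.75-fold. On the log2 scale the ratio of group means was 0.74, and it was -0.03 without control replicate 1 and 2.52 without control replicate 2.

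Counting error was far smaller than these distances. The Zscan4 sum rested on 138 and 695 fragments in the control libraries and on 1083 and 411 in the knockdown libraries, or 4.01, 22.1, 31.8 and 14.03 when scaled to the library total as FPM (the FPKM scaling without gene length). Their exact 95% Poisson intervals were 3.37 to 4.74, 20.5 to 23.8, 29.9 to 33.7 and 12.7 to 15.4 FPM, which do not touch. Such intervals cover counting error only, since fragments copied by PCR are not independent molecules. Each fragment number is the smallest whole number that fits, so it can be too low by a factor common to the libraries.

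**Figure D2:**
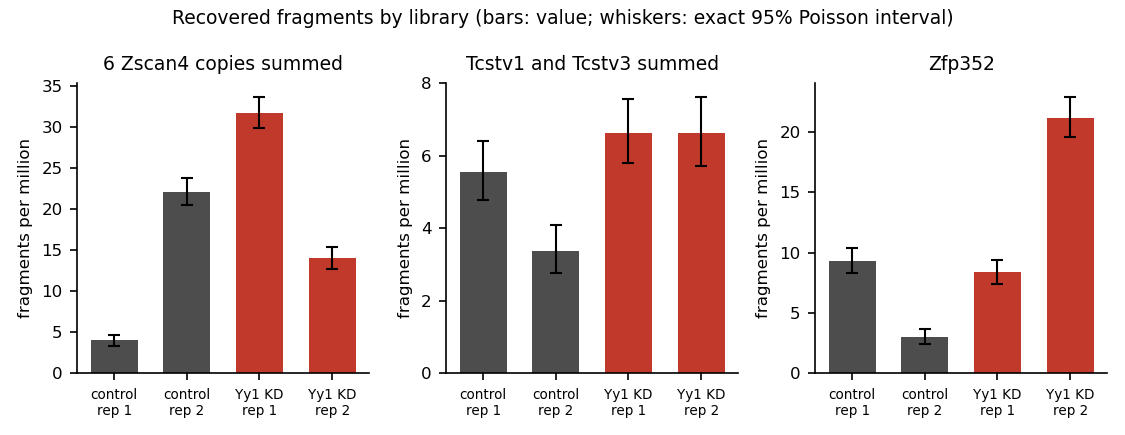
Bars give recovered fragments as FPM (vertical axes, from 0) of the 6 Zscan4 copies summed, of Tcstv1 and Tcstv3 summed and of Zfp352 in each library, grey for control and red for Yy1 knockdown. Whiskers are exact 95% Poisson intervals. For Zscan4 the 2 grey bars stand at 4.01 and 22.1, and for Zfp352 knockdown replicate 2 is the highest bar at 21.2.

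The make-up of the Zscan4 signal is given as a description, since the copies were put in groups after their values had been seen, with Zscan4c, Zscan4d and Zscan4f on one side and Zscan4b and Zscan4e on the other. Zscan4c, Zscan4d and Zscan4f held 52.9% of the Zscan4 fragments in control replicate 1 (exact 95% binomial interval 44.2 to 61.4%) and 32.7% in control replicate 2 (29.2 to 36.3%). They held 60.7% in knockdown replicate 1 (57.7 to 63.6%) and 38.4% in knockdown replicate 2 (33.7 to 43.3%). The groups of libraries overlap. The intervals cover counting error only. A fragment number too low for a copy, or fragments that match several copies, would shift the shares themselves. In FPKM, Zscan4c, Zscan4d and Zscan4f together stood at 0.959 and 3.36 in control and at 8.96 and 2.5 in knockdown libraries, while Zscan4b and Zscan4e together stood at 0.986 and 7.6 and at 6.73 and 5.32.

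**Figure D3:**
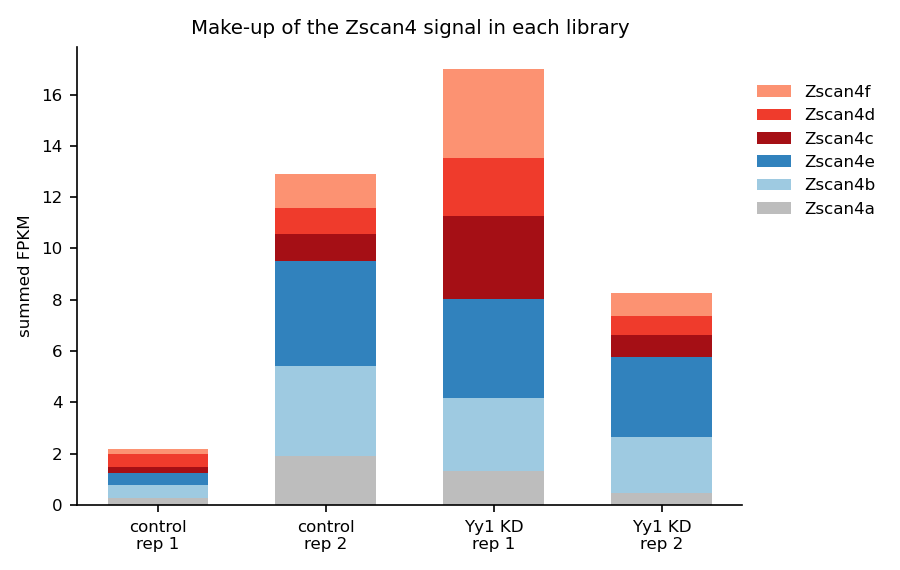
Stacked bars give the summed FPKM of the Zscan4 copies (vertical axis, from 0) in each library, with Zscan4c, Zscan4d and Zscan4f in reds, Zscan4b and Zscan4e in blues and Zscan4a in grey. The bar of control replicate 1 ends at 2.2 FPKM, and that of knockdown replicate 1, where the red part is 52.7% of the FPKM, at 17.0 FPKM.

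The pseudogene copies of the cluster, which are not members, varied among themselves. Zscan4-ps1, at 0.13 and 0.363 FPKM in control and at 1.08 and 0.593 FPKM in knockdown libraries, had both knockdown libraries above both controls and was below the filter. Zscan4-ps3, also below it, was highest in control replicate 2, at 1.05 FPKM against 0.812 FPKM in knockdown replicate 1. Zscan4-ps1, Zscan4-ps2 and Zscan4-ps3 summed to 0.372 and 2.96 FPKM in control and to 3.98 and 1.49 FPKM in knockdown libraries. The order of this sum, with knockdown replicate 1 highest and control replicate 1 lowest, was that of the 6 copies. Zscan4-ps2 passed the filter (log2 fold change 0.45, limma adjusted p = 0.823). With the pseudogene copies added, Zscan4 stood at 2.57 and 15.9 FPKM in control and at 21.0 and 9.77 FPKM in knockdown libraries.

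The Tcstv copies, which belong to the same 2-cell program, did not share this order. Tcstv3 stood at 3.13 and 2.19 FPKM in control and at 9.03 and 6.09 FPKM in knockdown libraries. Both knockdown libraries exceed both controls, and control replicate 1 is here the higher control. Its means were 2.66 ± 0.67 and 7.56 ± 2.08 FPKM (SD, n = 2 each), 2.84-fold apart, with a log2 fold change of 1.22, a standard error of 0.27, an unadjusted p of 0.00461 and a limma adjusted p of 0.462. Of all genes tested, 0.866% had a log2 fold change at least as high.

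Tcstv1 stood at 2.83 and 1.62 FPKM in control and at 1.45 and 2.51 FPKM in knockdown libraries. The groups cross, with a log2 fold change of -0.11 and a standard error of 0.32 (limma adjusted p = 0.939). The difference between Tcstv1 and Tcstv3 in their response was not tested. Summed, the copies stood at 5.96 and 3.8 FPKM in control and at 10.5 and 8.6 FPKM in knockdown libraries, groups that do not overlap, an arrangement seen in 21.8% of all genes tested. Tcstv1 held 2.83 of 5.96 FPKM in control replicate 1 and 1.45 of 10.5 FPKM in knockdown replicate 1, with Tcstv3 as the rest. In recovered fragments the Tcstv sum was 5.55 and 3.38 FPM in control and 6.63 and 6.62 FPM in knockdown libraries. Tcstv1 weighs more there, since the recovered lengths were 1398 bases for Tcstv1 and 510 for Tcstv3. The Poisson interval of control replicate 1, 4.79 to 6.39, overlaps those of both knockdown libraries, which begin at 5.8 and 5.72. Lengths and fragments are the smallest that fit, so Tcstv3 may be undercounted, and whether this overlap holds depends on them.

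Zfp352 stood at 4.07 and 1.33 FPKM in control and at 3.67 and 9.3 FPKM in knockdown libraries. Knockdown replicate 2 was the highest and control replicate 2 the lowest, and the groups overlap because knockdown replicate 1 lies below control replicate 1. The means were 2.7 ± 1.94 and 6.49 ± 3.97 FPKM (SD, n = 2 each), 2.4-fold apart, with a log2 fold change of 1.01 and a standard error of 0.52 (limma adjusted p = 0.624). Zfp352 rested on 319 and 95 fragments in control and on 285 and 620 in knockdown libraries. Its pseudogene relative Zfp353-ps stood at 2.29 and 1.33 FPKM in control and at 1.3 and 1.49 FPKM in knockdown libraries. Its relative Zfp345 stood at 9.21 and 7.64 FPKM in control and at 9.55 and 8.75 FPKM in knockdown libraries.

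Set side by side, the 3 families rank the libraries differently. The Zscan4 sum ran from control replicate 1 through knockdown replicate 2 and control replicate 2 to knockdown replicate 1. Zfp352 ran from control replicate 2 through knockdown replicate 1 and control replicate 1 to knockdown replicate 2. Tcstv3 ran from control replicate 2 through control replicate 1 and knockdown replicate 2 to knockdown replicate 1. The sum over all 9 members was 12.2 and 18.02 FPKM in control and 31.2 and 26.2 FPKM in knockdown libraries. It does not overlap between groups, an arrangement seen in 21.8% of all genes tested. Of the single members this holds for Tcstv3 alone, and the Zscan4 sum and Zfp352 overlap between groups. The sum over all members was not among the planned sums.

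**Figure D4:**
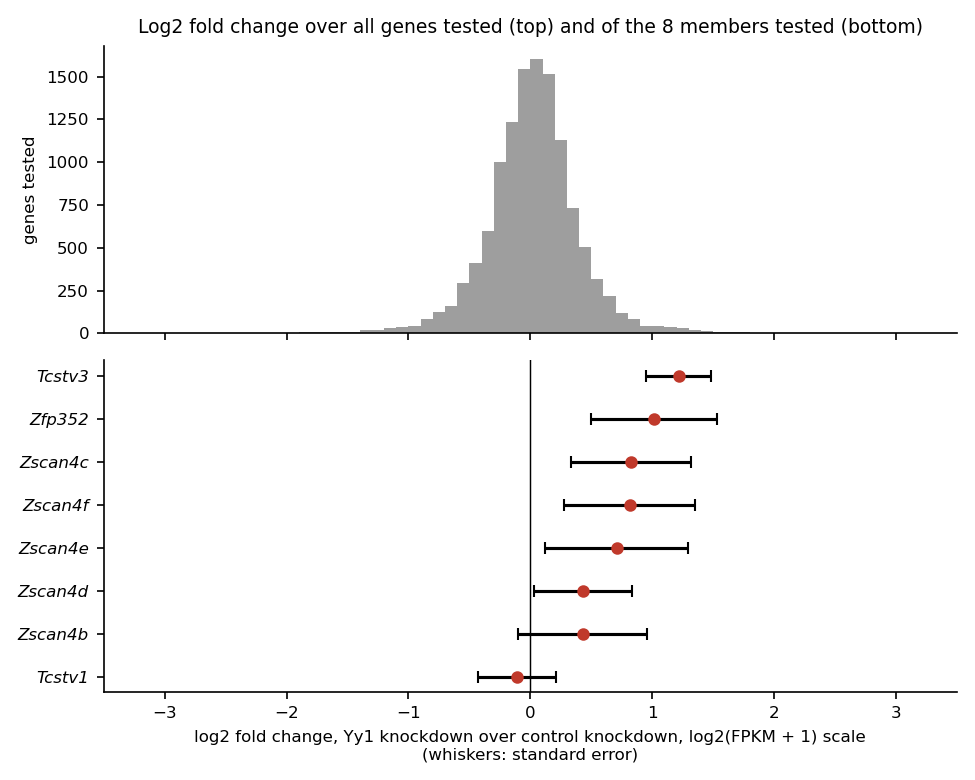
The upper panel counts genes (vertical axis) by their log2 fold change between Yy1 knockdown and control knockdown on the log2(FPKM + 1) scale (horizontal axis), and the lower panel gives the 8 tested members with their standard errors. All genes tested centre on 0.02, with 5% of them above 0.62, and the members lie between -0.11 for Tcstv1 and 1.22 for Tcstv3.

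Where the members stand among all transcripts depended on the library too. Zscan4e exceeded 38.6 and 69.03% of the genes detected in the control libraries and 69.3 and 65.1% of those in the knockdown libraries. Zfp352 exceeded 69.2 and 53.3% in control and 68.7 and 79.8% in knockdown libraries. Tcstv3 exceeded 65.5 and 60.3% in control and 79.8 and 74.5% in knockdown libraries. All members were thus detected in all 4 libraries at this stage, at 0.193 to 9.3 FPKM.

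Upstream of these genes, Duxf3, which encodes DUX, stood at 0.151 and 0.885 FPKM in control and at 0.773 and 0.278 FPKM in knockdown libraries, from 14 to 75 fragments. It was below the filter, control replicate 1 was its lowest library, and the groups overlap. The list of 2-cell activators held 9 symbols besides Zscan4c, which is a member. Dux and Duxf3 stand there for the same gene, and 7 of the symbols were tested. Of these 5 were higher and 2 lower, with a median log2 fold change of 0.05, and none passed. Dppa4, a DNA-binding partner of DPPA2 that acts ahead of Dux, stood at 97.3 and 95.4 FPKM in control and at 110 and 116 FPKM in knockdown libraries (limma adjusted p = 0.641). Tbx3, a T-box factor, stood at 83.8 and 75.9 FPKM in control and at 72.4 and 57.6 FPKM in knockdown libraries (limma adjusted p = 0.641). Nr5a2, an orphan nuclear receptor, and Nelfa, a subunit of the negative elongation factor, had limma adjusted p values of 0.723 and 0.744.

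Among genes that hold 2-cell transcripts and MERVL in check, 30 were listed and tested, 18 of them higher and 12 lower, with a median log2 fold change of 0.03. None passed. At an unadjusted p under 0.05 stood 4, all of them lower, where 4.69% of all genes tested were lower and 4.22% higher. Of the 30, 6 had both knockdown libraries below both controls and 8 above both, against 18.9 and 21.8% of all genes tested. The 4 genes with the smallest p follow. Zfp42, which encodes the YY1 relative REX1, stood at 30.7 and 30.2 FPKM in control and at 5.43 and 3.99 FPKM in knockdown libraries (limma adjusted p = 0.0928). E2f6, a repressor of the E2F family, stood at 7.41 and 6.88 FPKM in control and at 3.65 and 3.64 FPKM in knockdown libraries (limma adjusted p = 0.462). Zmym2, a zinc finger partner of the LSD1 complex, stood at 11.95 and 12.9 FPKM against 8.02 and 7.53 FPKM (limma adjusted p = 0.502), and Ehmt1, a histone H3K9 methyltransferase, at 15.2 and 17.02 against 12.2 and 11.7 FPKM (limma adjusted p = 0.559).

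Of 30 other 2-cell genes, 24 have a row in the table and 18 were tested. The list holds the relatives Zscan4-ps1, Zscan4-ps2, Zscan4-ps3, Zfp353-ps and Zfp345 described with the members. Of these 16 were higher and 2 lower by group mean, with a median log2 fold change of 0.33. None passed, and 2 had an unadjusted p under 0.05, both higher, as had 4.22% of all genes tested. In 8 of the 18 both knockdown libraries lay above both controls, and in 1 below both, against 21.8 and 18.9% of all genes tested. Tdpoz3, of a multicopy family of proteins with TRAF and BTB domains, stood at 3.97 and 7.77 FPKM in control and at 13.04 and 13.02 FPKM in knockdown libraries (limma adjusted p = 0.502). Tdpoz1 stood at 8.47 and 6.16 FPKM in control and at 11.1 and 10.1 FPKM in knockdown libraries (limma adjusted p = 0.571). Usp17lc and Usp17ld, of a multicopy family of deubiquitinases, had limma adjusted p values of 0.552 and 0.593. The Tdpoz and Usp17l genes resemble their relatives closely in sequence, so their values are not independent measurements.

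After the values had been seen, the genes were also counted by whether control replicate 1 was their lowest library. Over all genes tested this held for 28.8%, for 5 of 5 tested Zscan4 copies and for 8 of 18 tested genes of this list. It held for Usp17lb, at 1.19 and 4.24 FPKM in control and at 4.62 and 2.89 FPKM in knockdown libraries, and not for Tcstv1, Zfp352 or Tcstv3. Since 1 library is compared, this describes that library and not the control condition.

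**Figure D5:**
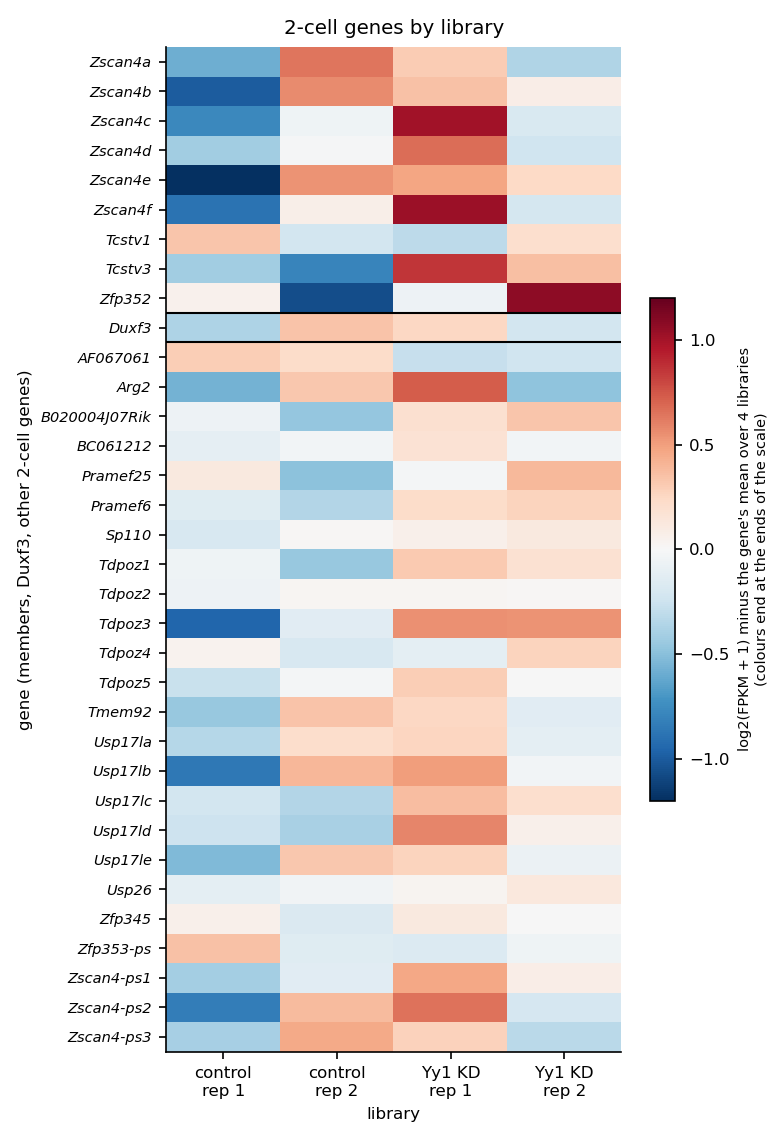
Colours give log2(FPKM + 1) minus the gene's mean over the 4 libraries (columns), for the members, for Duxf3 and for 24 other 2-cell genes (rows). The Zscan4 rows are blue in control replicate 1, as are those of Duxf3 and Usp17lb, while the Zfp352 row is bluest in control replicate 2.

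The genes whose pattern was most like that of the Zscan4 sum were sought among 611 named protein-coding genes with a range of at least 1 on the log2 scale. By Pearson's r over the 4 libraries on log2(FPKM + 1) they were Creg1 (r = 0.999), Usp17lb (0.997), Acpp (0.994), Msrb2 (0.986) and Nup62cl (0.975). An r of at least 0.95 was reached by 10 of these genes, 1.64%. With 4 libraries this is a description of likeness with no test. Creg1, a secreted glycoprotein gene, stood at 3.98 and 8.74 FPKM in control and at 10.2 and 7.41 FPKM in knockdown libraries.

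Genes tied to the telomere role of ZSCAN4 gave 12 tested of 14, 7 higher and 5 lower, with a median of 0.06, and none passed. Rif1 and Atrx are in the list of repressors too. At an unadjusted limma p under 0.05 stood 1, Terf2, which was lower, as were 4.69% of all genes tested. In 2 of the 12 both knockdown libraries lay above both controls and in 3 below both, against 21.8 and 18.9% of all genes tested. Terf2, which encodes a telomere repeat binding protein, stood at 4.73 and 5.88 FPKM in control and at 2.55 and 2.9 FPKM in knockdown libraries (limma adjusted p = 0.515). Tet2, a DNA demethylation enzyme, stood at 3.06 and 7.16 FPKM in control and at 1.95 and 2.6 FPKM in knockdown libraries (limma adjusted p = 0.598). Next by p were Dmc1, which was lower, and Pot1a, which was higher, with limma adjusted p values of 0.677 and 0.781. Spo11, the meiotic break enzyme, was listed at 0 in all libraries.

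Stage and cell markers were read beside these values. Of 14 genes of later stages 11 were tested, 5 higher and 6 lower, with none passing and a median of -0.01. At an unadjusted limma p under 0.05 stood 2, Krt18 and Krt8, both higher, as were 4.22% of all genes tested. Both knockdown libraries lay above both controls for 3 of the 11 and below both for 3, against 21.8 and 18.9% of all genes tested. Krt18, a keratin of the trophectoderm, stood at 4.52 and 11.7 FPKM in control and at 20.8 and 28.6 FPKM in knockdown libraries (limma adjusted p = 0.5), and control replicate 1 was again the lowest library. Krt8 stood at 11.1 and 20.7 FPKM in control and at 31.6 and 23.5 FPKM in knockdown libraries (limma adjusted p = 0.556). Oocyte markers, 9 of 10 tested, summed to 63.1 and 60.4 FPKM in control and to 80.2 and 66.3 FPKM in knockdown libraries. This sum ran from control replicate 2 through control replicate 1 and knockdown replicate 2 to knockdown replicate 1, which is the order of Tcstv3. The Zscan4 sum was also highest in knockdown replicate 1 but lowest in control replicate 1. The oocyte sum does not overlap between groups. Of the 9 tested markers, 4 had both knockdown libraries above both controls and 0 below both, against 21.8 and 18.9% of all genes tested. The 9 tested markers were detected in every library, from Npm2 at 17.9 to 25.1 FPKM down to Mos at 0.661 to 2.09 FPKM. Figla, the 1 marker not tested, was at 0 in both controls and knockdown replicate 2 and at 0.0702 FPKM in knockdown replicate 1. Cumulus and granulosa markers summed to 4.92 to 5.42 FPKM in control and to 7.74 to 7.99 FPKM in knockdown libraries, nearly all of it Amhr2, with 4 of 10, Fshr, Inha, Has2 and Ptx3, at 0 throughout. Sperm markers summed to 2.93 and 4.91 FPKM in control and 2.7 and 6.4 FPKM in knockdown libraries, with 7 of 10 at 0, blood markers to 0.605 to 1.75 FPKM, and fibroblast markers to 0.24 to 0.746 FPKM. The part of any of these, or of the mitochondrial share, in the members' values was not tested.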

How the data were processed

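Total RNA libraries of 8-cell embryos, made with the SMART-Seq stranded kit as the labels state, were analysed from 1 table of FPKM values that the authors deposited. Build mm10 and, among the tools, HISAT2 2.2.1, featureCounts and Trim Galore 0.6.7 are named in the submitters' processing notes, with no assay given for each. The choice of annotation, strand setting and multiply mapped reads was not given in the sources used here. The 4 columns were matched to samples by the labels.

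Library totals were recovered from the steps between FPKM values, as the largest total of which many values were whole multiples. Of 12120 genes above the filter, 12117 gave whole fragments within 0.02. On simulated tables of this comparison 4 of 4 totals were found, and 96.4% of 800 genes came out exactly. Genes averaging 1 FPKM or more were tested with limma 3.58.1 in R 4.3.3 on log2(FPKM + 1), with group alone, a mean-variance trend and two-sided p. On this scale changes of low genes come out too small. The fit was also run on simulated data, with changes put only into genes averaging above about 5 FPKM and spreads shuffled over genes. Most members lie below that level, so this does not show how the fit performs for them. Sums over copies are described without a p, and as an alternative they replaced the single copies in the fit. Coordinates and biotypes come from RefSeq, GRCm38.p6, the assembly behind mm10, where 9 of 9 members matched. Named genes are the members, Yy1, listed relatives, up to 4 genes per list by smallest p, and the 5 genes most like the Zscan4 sum. Others were named after their values were seen. Members, lists and tests were chosen with earlier results of these data known.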

Additional observations from a re-analysis of the deposited data

How the results depend on the processing

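No member was called under any of the 16 alternatives run. The count of genes called, 0 with all 12120 genes, was 4 with a filter of 5 FPKM (fewer genes tested), 1 with robust moderation, 13 with limma-voom on recovered fragments and 14 among protein-coding genes alone; the cause was not tested. It ranged from 0 to 0 when each library was left out. Fits without a library assume that the lone sample varies like the other group. The log2 ratio of the summed Zscan4 copies, 0.74, was -0.03 without control knockdown replicate 1 and 2.52 without control knockdown replicate 2, its range over the libraries left out. That of the Tcstv sum, 0.97, ranged from 0.68 to 1.33. It was 0.57 in fragments scaled to the library total, where copies of larger recovered length weigh more. That of Zfp352, 1.26, ranged from 0.44 to 2.29. Over the libraries left out, the log2 fold change of Zscan4b ranged from -0.36 to 1.21, of Zscan4c from 0.23 to 1.42, of Zscan4f from 0.2 to 1.43, of Zscan4d from -0.02 to 0.89, of Zscan4e from -0.19 to 1.61 and of Tcstv1 from -0.38 to 0.16, while Tcstv3 stayed between 0.97 and 1.47. With limma-voom Zscan4c was at 1.84 and Zscan4f at 1.89. Summed before the fit, the Zscan4 copies had a log2 fold change of 0.96 and the Tcstv copies of 0.86, neither called. List medians crossed 0 for 2-cell activators (-0.02 to 0.21), repressors (-0.03 to 0.11), telomere genes (-0.03 to 0.06) and later stage genes (-0.14 to 0.19, and 0.03 with no filter or a filter of 0.1 FPKM). For other 2-cell genes the median ranged from 0.2 to 0.44, and was 0.17 with a filter of 5 FPKM and 0.47 with limma-voom. Yy1 passed the threshold in the 4 settings that called genes.

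With the replicate number as a block, the count of called genes was 0, so the block changed no call. Averaged within numbers, the Zscan4, Tcstv and Zfp352 log2 ratios were 1.16, 1.0 and 1.33. These are means of log2 ratios, while the main values are log2 of the ratio of group means. Such a mean is the same however the libraries are paired. Its distance from the main value therefore comes from the way of averaging and not from the block. The deviations of same-numbered libraries had r = 0.0994 across 12120 genes. With 2 numbered pairs this does not settle whether they shared a collection, and the labels give the number alone.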
